A study of Mus musculus with 4 samples.

Results

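The AP-2 family of transcription factors is encoded in the mouse by 5 genes, Tfap2a, Tfap2b, Tfap2c, Tfap2d and Tfap2e, and 2 of them, Tfap2a and Tfap2b, were the genes removed in this study. The open chromatin around all 5 was examined in ATAC-seq of facial surface ectoderm. In this assay a transposase cuts and tags the DNA between nucleosomes. A peak belonged to the family when its centre lay within 250 kb of the start site of the principal transcript of a member gene. By this rule 122 of the 65467 peaks found in control ectoderm were retained, together with 5 of the 3103 AP-2-dependent regions, which are the stretches called in control libraries with mutant libraries as background. Tfap2a had 31 of the control peaks, Tfap2b 23, Tfap2c 43, Tfap2d 22 and Tfap2e 25. The start sites of Tfap2d and Tfap2b are 106 kb apart, so all 22 peaks of Tfap2d were also peaks of Tfap2b.

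AP-2 proteins bind DNA as dimers through a basic helix-span-helix domain, and they recognise a palindromic GC-rich site in which GCC and GGC flank a short spacer. They are known as regulators of surface ectoderm, neural crest and skin. Tfap2a is required for closure of the face and neural tube, the human counterpart of Tfap2b is mutated in Char syndrome, Tfap2c acts in trophoblast and germ cells, Tfap2d is known from the midbrain and retina, and Tfap2e from the olfactory system.

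The ectoderm came from the facial prominences of E11.5 mouse embryos and was separated from the mesenchyme with dispase. The control littermates carried 1 floxed copy of both Tfap2a and Tfap2b (Tfap2aflox/+; Tfap2bflox/+) and lacked Cre. The ectodermal double knockouts, EDKO, were Crect; Tfap2aflox/flox; Tfap2bflox/flox. Crect is a Cre transgene driven by an intronic enhancer of Tfap2a itself, active in early ectoderm, so EDKO cells carry additional copies of that enhancer. Where the enhancer lies is not given in the sources used here. Each group had 2 libraries, and the authors combined them before calling peaks. A peak therefore has 1 value, the −log10 p at its summit, with no value per library, no error between replicates and no read count, and no test between libraries could be made. These values are printed as the authors' combined values.

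Peaks at the start sites of cell type markers were used to check the tissue. All 8 surface ectoderm markers had one (Epcam, Cdh1, Krt8, Krt18, Krt5, Krt14, Trp63 and Esrp1), with summit −log10 p from 6.77 at Krt8 to 12.4 at Esrp1. All 5 facial mesenchyme markers also had one, from 3.27 at Prrx1 to 7.96 at Col1a1, as did all 3 neuroectoderm markers, from 4.61 at Neurog1 to 8.3 at Sox1. The start sites of Pecam1, Cdh5, Ptprc and Hbb-y, markers of endothelium and blood, had none. Of 21829 protein-coding genes, 65.5% had a control peak within 1 kb of the start site. Open chromatin in few cells and weaker opening in all cells cannot be told apart in pooled tissue.

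All 5 members had a control peak within 1 kb of the start site, and their 5 AP-2-dependent regions all lay away from it. The sequences of 4 of these regions are shown first, because they are the stretches around the AP-2 genes that were called in control against mutant ectoderm. The first of them lies in DNA that the mutant alleles lose. Each is given on the forward strand of GRCm38, to at most its first 300 bases, with the AP-2 consensus GCCNNNGGC in capitals. The regions are named by the member gene and the distance of their centre from its start site, negative for upstream. They begin at chr13:40719309-40719608 and chr13:40884900-40885199 for Tfap2a, chr1:19233786-19234085 for Tfap2b and chr2:172485110-172485409 for Tfap2c.
Tfap2a +14.1 kb: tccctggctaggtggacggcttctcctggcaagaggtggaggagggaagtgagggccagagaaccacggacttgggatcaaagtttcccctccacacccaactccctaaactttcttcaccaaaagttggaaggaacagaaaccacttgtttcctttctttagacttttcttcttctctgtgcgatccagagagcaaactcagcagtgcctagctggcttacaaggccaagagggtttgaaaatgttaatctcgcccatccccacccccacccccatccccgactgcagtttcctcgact
Tfap2a -151.3 kb: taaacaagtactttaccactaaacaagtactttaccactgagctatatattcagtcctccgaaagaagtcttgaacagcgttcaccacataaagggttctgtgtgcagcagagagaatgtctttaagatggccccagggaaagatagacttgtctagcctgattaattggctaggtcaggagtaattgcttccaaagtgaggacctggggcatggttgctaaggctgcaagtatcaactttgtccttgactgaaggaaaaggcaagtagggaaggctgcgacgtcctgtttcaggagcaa
Tfap2b +25.1 kb: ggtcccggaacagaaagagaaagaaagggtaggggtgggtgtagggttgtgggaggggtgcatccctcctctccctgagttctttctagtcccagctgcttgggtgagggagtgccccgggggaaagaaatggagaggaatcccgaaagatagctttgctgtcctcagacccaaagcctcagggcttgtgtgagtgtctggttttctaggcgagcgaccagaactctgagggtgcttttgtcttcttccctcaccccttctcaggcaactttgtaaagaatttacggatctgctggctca
Tfap2c -64.3 kb: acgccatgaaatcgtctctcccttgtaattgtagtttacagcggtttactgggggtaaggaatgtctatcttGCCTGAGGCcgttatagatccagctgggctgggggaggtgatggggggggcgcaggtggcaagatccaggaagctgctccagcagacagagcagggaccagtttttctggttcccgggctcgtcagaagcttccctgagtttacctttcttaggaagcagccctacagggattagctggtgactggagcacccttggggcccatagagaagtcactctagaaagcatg
Of these 4 regions, 1 held the consensus, that of Tfap2c, where the letters of the match were GCCTGAGGC and lay 150 bp from the summit. Over all 5 family regions 2 held it, 40.0% (95% Wilson interval 11.8 to 76.9%), and over all 3072 regions on the chromosomes the share was 29.7%. Every 31-base word of these 4 regions occurred 1 time in the assembly.

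Tfap2a (chr13:40715302-40738376, minus strand) had the largest share of its surroundings inside control peaks among the 5 genes. Within 25 kb of its start site there were 14 control peaks, the same count as at Tfap2b. The median over all protein-coding genes was 2, and 0.169% of the genes had 14 or more. Control peaks covered 48.0% of the 25 kb on either side, a share that 0.137% of genes reached. Of its 31 peaks, 24 had Tfap2a as the nearest protein-coding gene and are called its own here. These covered 32.2 kb, with a median width of 881.5 bp against 560 bp over all control peaks. Their summit −log10 p ran from 3.69 to 11.2 with a median of 5.82, against 5.1 over all control peaks.

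The Tfap2a peaks sat at the promoters, through the gene and downstream of it. The start-site peak was 4640 bp wide, from 40730522 to 40735161, with a summit −log10 p of 11.2, and it was wider than 99.22% of the 14299 start-site peaks of protein-coding genes. The summit lay in intron 1, 2162 bp downstream of the principal start site. The 5′-most annotated start site, at 40738376, had a separate peak of 3519 bp with a summit −log10 p of 8.89. Of the 6 annotated start sites, 5 lay inside a peak and the other was 79 bp from one. The next strongest peak of the gene, 2343 bp in intron 4, reached 10.4. Another peak of 10.4 stood 215 kb downstream, in the stretch between Tfap2a and the next gene, and was the most distant of the 24. Of these 24 peaks, 5 were upstream and 19 downstream of the start site.

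**Figure D1:**
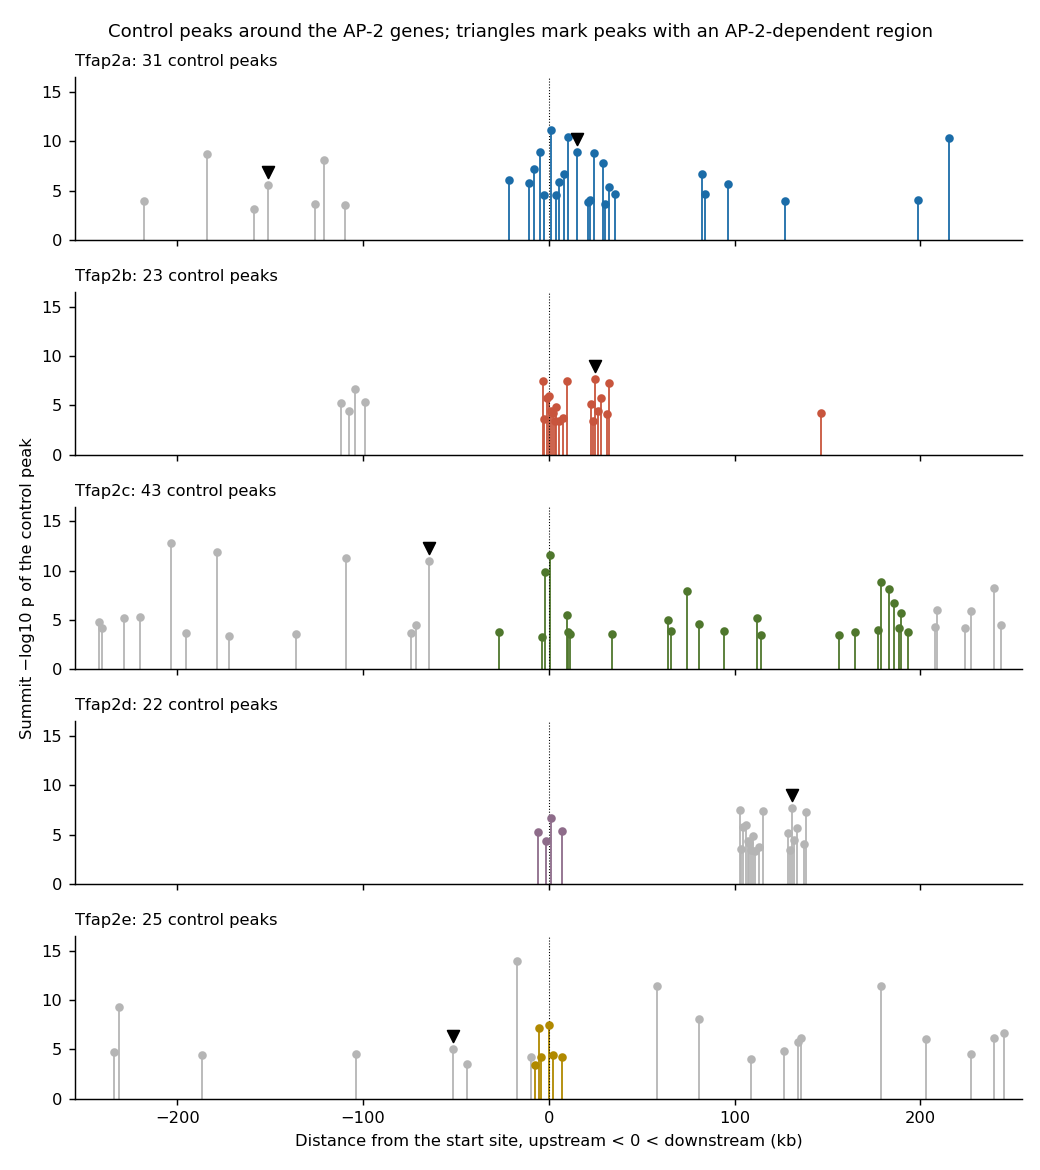
Control peaks around each AP-2 gene, placed by the distance of the peak centre from the start site in kb (x axis) with the summit −log10 p as height (y axis). Coloured peaks have the member as the nearest start site, grey peaks have another gene, and black triangles mark peaks that overlap an AP-2-dependent region, of which Tfap2a has 2 and each other gene 1, with the triangle of Tfap2b repeated for Tfap2d.

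The stronger AP-2-dependent region of Tfap2a fell inside the DNA that Cre removes. The region spans chr13:40719309-40720099, 791 bp, with its summit in intron 5 and a summit −log10 p of 6.88, the highest of the 5 regions. By area under its −log10 p curve it ranked 409 of the 3103 regions. The loxP sites of the conditional allele flank exons 5 and 6, counted in the principal transcript, and from the start of exon 5 to the end of exon 6 the stretch runs over chr13:40719192-40721387. All 791 bp of the region lay in this stretch. The genotyping primers of the study matched the reference at 40721292 and 40721524, an amplicon of 233 bp from exon 5 into intron 4. The exact places of the loxP sites are not given in the sources used here.

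The control peak around this region was 3223 bp wide, from 40716877 to 40720099, with a summit −log10 p of 8.92 in exon 6. The region and the peak ended at the same base. Of this peak, 908 bp lay between exons 5 and 6 inclusive, and the region covered 87.1% of that. The remaining 2315 bp, in intron 6 and exon 7, held 0 bp of any region. The loxP site beyond exon 6 is not placed, so part of these 2315 bp may also be removed. The other 5 control peaks of the principal transcript, in introns 1, 3 and 4, exon 2 and at the start site, held no region. These peaks could not be checked for EDKO reads from the enhancer copies in Crect. In EDKO cells in which Cre has acted, the DNA from exon 5 to exon 6 is absent from both alleles. Lower accessibility of a site and loss of its DNA therefore cannot be told apart there. The 2196 bp stretch carries 261 of the 1311 coding bases of Tfap2a, a multiple of 3.

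**Figure D2:**
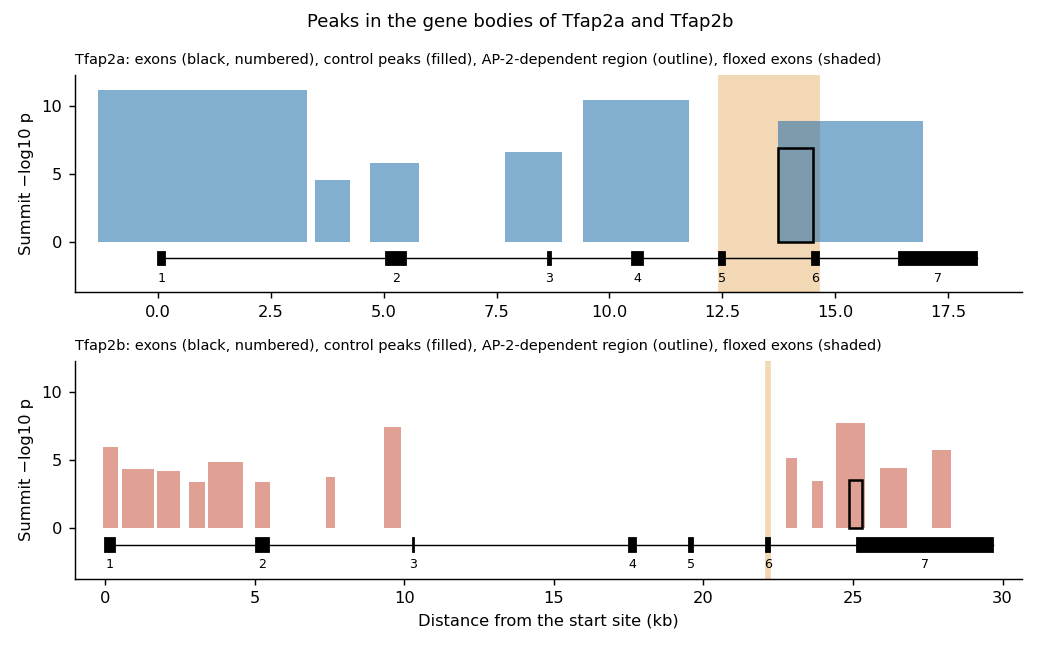
Exons (black, numbered), control peaks (filled) and the AP-2-dependent region (outline) along Tfap2a (top) and Tfap2b (bottom), by distance from the start site in kb, with summit −log10 p as the height of peaks and regions and the floxed exons shaded. The Tfap2a region lies wholly in the shaded stretch, and the Tfap2b region begins 2631 bp beyond its shaded exon.

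The other region within 250 kb of Tfap2a spans chr13:40884900-40885256, 357 bp with a summit −log10 p of 4.01, and covered 92.2% of a control peak of 387 bp and 5.55. It stood 151 kb upstream of Tfap2a but 2.12 kb upstream of Gcnt2, a glycosyltransferase of the blood group I antigen, which is its nearest gene. Of the 24 own peaks of Tfap2a, 1 held an AP-2-dependent region, the peak at the floxed exons.

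Tfap2b (chr1:19208914-19238576, plus strand) had many narrow peaks. Within 10 kb of its start site there were 11 control peaks, the sixth highest count of all protein-coding genes. The median was 1, and 0.0321% of genes had as many. Close neighbours count separately, such as the peak that ended at 19209359 and the next, which began at 19209477. By the share of the 25 kb on either side inside control peaks, 15.4%, Tfap2b ranked 1385 of 21829 genes. Its 19 own peaks covered 11.5 kb, against 32.2 kb at Tfap2a, with a median width of 528 bp and summit −log10 p from 3.39 to 7.7, median 4.42. Of all 23 peaks, 13 had their summit in the gene. The start-site peak was 517 bp wide with a summit −log10 p of 5.98, narrower than most, since 94.4% of start-site peaks were as wide or wider. The strongest peaks lay elsewhere, with 7.7 at the end of intron 6, 7.49 at 3.08 kb upstream of the start site and 7.42 in intron 2.

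The strongest of these, at chr1:19233342-19234326, held the AP-2-dependent region of the gene. The region spans chr1:19233786-19234205, 420 bp over the end of intron 6 and the start of exon 7, with a summit −log10 p of 3.54, which placed it at percentile 9.67 of the regions. It ranked 2082 of 3103 by area. The floxed part of Tfap2b is exon 6, at chr1:19231013-19231154. The genotyping primers matched at 19230997 and 19231252, from the start of exon 6 into intron 6, and the region began 2533 bp beyond this amplicon. No control peak of Tfap2b touched exon 6. Between exon 6 and the peak with the region there were 2 control peaks, which began 504 and 1396 bp beyond the exon with summit −log10 p of 5.13 and 3.46, and neither held a region. The Tfap2b region thus lay outside the floxed exon, unlike that of Tfap2a. The 142 coding bases of exon 6 are not a multiple of 3.

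Tfap2c (chr2:172549593-172558622, plus strand) had the most control peaks in its window, 43, of which 24 were its own. Its start-site peak, chr2:172548613-172552138, was 3526 bp wide with a summit −log10 p of 11.6, and 2.65% of start-site peaks were as wide. A peak of 1542 bp with 9.86 stood 2.23 kb upstream. No summit fell inside the gene. The own peaks covered 20.6 kb and ran to 194 kb downstream, with 21 downstream and 3 upstream of the start site. At 179 to 190 kb downstream lay a group that held a peak of 8.84, one of 8.14 that was 2575 bp wide and one of 6.71. Tfap2c was not deleted in this study, and its start-site peak held no AP-2-dependent region.

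The region of Tfap2c, chr2:172485110-172485425, stood 64.3 kb upstream and 12.7 kb from Fam209, its nearest gene. It was 316 bp wide with a summit −log10 p of 4.13 and covered 44.8% of a strong control peak of 705 bp with a summit −log10 p of 11.0, at percentile 92.9 of all control peaks. The summits of peak and region were 218 bp apart. By area the region ranked 2804 of 3103.

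Tfap2d (chr1:19103022-19166346, plus strand) was the member with the fewest own peaks. There were 4, at −6.0, −1.45, 1.46 and 6.94 kb from the start site, with summit −log10 p of 5.28, 4.39, 6.64 and 5.38. They covered 2.61 kb. Its start-site peak, chr1:19103813-19105143, began 791 bp downstream of the annotated start site and had its summit in coding exon 2. Of the 3 RefSeq promoter windows of the gene, 1 lies within this peak. From 6.94 kb on, no peak was found up to the peaks of Tfap2b, and within 100 kb the gene had 4 peaks against a median of 8 over all genes. The single region in its window was that of Tfap2b, 131 kb downstream.

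Tfap2e (chr4:126716006-126736240, minus strand) had 25 peaks in its window and 6 of its own, all within 7.55 kb of its start site. The start-site peak, chr4:126735167-126736588, was 1422 bp wide with a summit −log10 p of 7.51. A peak with 7.17 stood 5.38 kb upstream. The strongest peak in the family windows, with 13.9 and 2653 bp, lay 17.0 kb upstream and was nearest to another gene, as were 45 of the 122 family peaks. The region of Tfap2e was 306 bp wide with a summit −log10 p of 4.46 and lay 51.7 kb upstream in intron 2 of AU040320, its nearest gene. It covered 78.3% of a control peak of 391 bp and 5.01.

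The 5 genes thus differed in how open their own surroundings were. By width of the start-site peak the order was Tfap2a, Tfap2c, Tfap2e, Tfap2d and Tfap2b, and by summit −log10 p it was Tfap2c, Tfap2a, Tfap2e, Tfap2d and Tfap2b. The values for Tfap2a and Tfap2c, 11.2 and 11.6, were above the median of 9.52 over all start-site peaks, and those for Tfap2e, Tfap2d and Tfap2b, 7.51, 6.64 and 5.98, were below it. At the 5′-most start site the peak of Tfap2a was 3519 bp wide against 3526 bp at Tfap2c, so that Tfap2c then came first by width. Without a value per library, no error can be attached to these orders. By peaks within 25 kb, Tfap2a and Tfap2b had 14 each, Tfap2e 8, Tfap2c 6 and Tfap2d 4. Counts over the full 250 kb differed less, from 22 to 43 against a median of 19, and 9.76% of all genes had as many as Tfap2c.

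**Figure D3:**
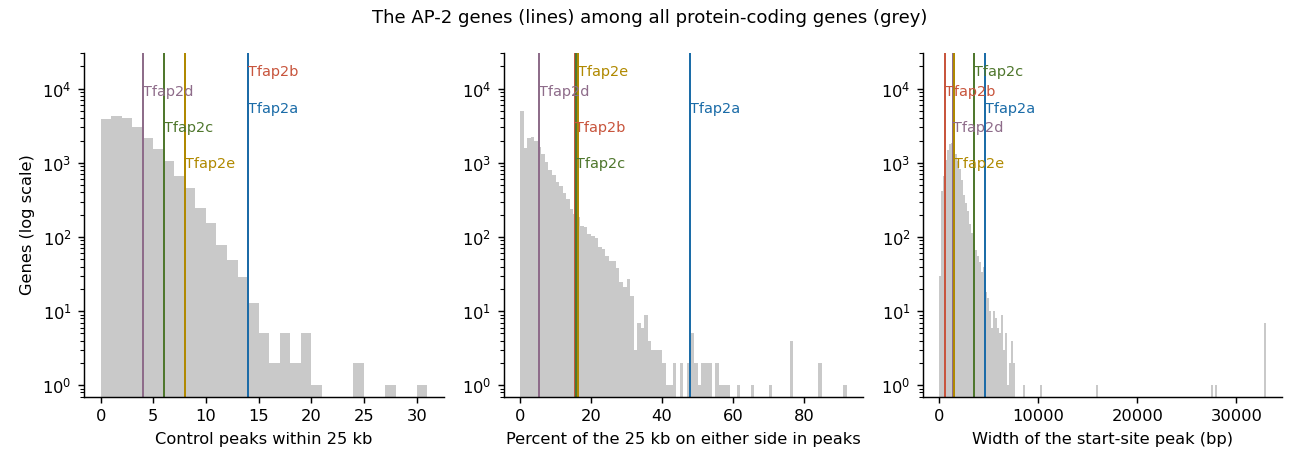
Number of control peaks within 25 kb of the start site (left), percent of the 25 kb on either side inside control peaks (middle) and width of the start-site peak in bp (right), for protein-coding genes (grey bars, number of genes on a log scale) with the 5 AP-2 genes as coloured lines. Tfap2a stands at 14 peaks, 48.0% and 4640 bp, reached by 0.169% and 0.137% of genes and by 0.783% of start-site peaks. Tfap2b shares its count of 14 but has 15.4% and 517 bp.

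The share of family peaks with an AP-2-dependent region was close to that of control peaks in general. Of the 122 control peaks, 5 overlapped a region, 4.1% (95% Wilson interval 1.76 to 9.24%), and over all control peaks the share was 4.48%. Among the 90 distal family peaks, which lay over 5 kb from any start site, it was 4.44%, against 5.75% over all distal peaks. Of the 77 peaks nearest to a member, 2 overlapped a region, 2.6% (0.715 to 8.98%). Intervals cover counting error only, and neighbouring peaks are not independent. Every member had at least 1 region within 250 kb, as did 41.4% of protein-coding genes, and Tfap2b and Tfap2d had the same one. No start-site peak of the 5 genes held a region. Of the 32 family peaks within 5 kb of a start site of any gene, 1 overlapped a region, 3.12% (0.554 to 15.7%), and over all 19684 such control peaks the share was 1.52%. With regions limited to an area of at least 500 under the −log10 p curve, 1 of the 5 remained, the one in the floxed exons of Tfap2a, and 1131 of all 3103 did, 36.4%.

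The AP-2 consensus was counted in the control peaks to describe how often the AP-2 genes carry the letters that AP-2 proteins recognise. Within 100 bp of the summit, 28 of the 122 peaks held GCCNNNGGC, 23.0% (16.4 to 31.2%), and over all control peaks the share was 14.4%. The median GC content of these windows was 52.7% at the family and 53.2% over all control peaks. The matches were unevenly spread. Among own peaks they stood in 11 of 24 at Tfap2a (45.8%, 27.9 to 64.9%), 5 of 24 at Tfap2c, 2 of 19 at Tfap2b, 2 of 4 at Tfap2d and 0 of 6 at Tfap2e. For own peaks the GC median was 52.2% at Tfap2a, 51.7% at Tfap2b, 54.7% at Tfap2c, 55.0% at Tfap2d and 58.7% at Tfap2e. A relation between GC content and the share of matches was not tested. Of the 5 family peaks that overlapped a region, 2 held the consensus near the summit, 40.0% (11.8 to 76.9%), and over all control peaks with a region the share was 22.6%. A match is a description of the letters and does not show binding, and these shares were not tested.

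**Figure D4:**
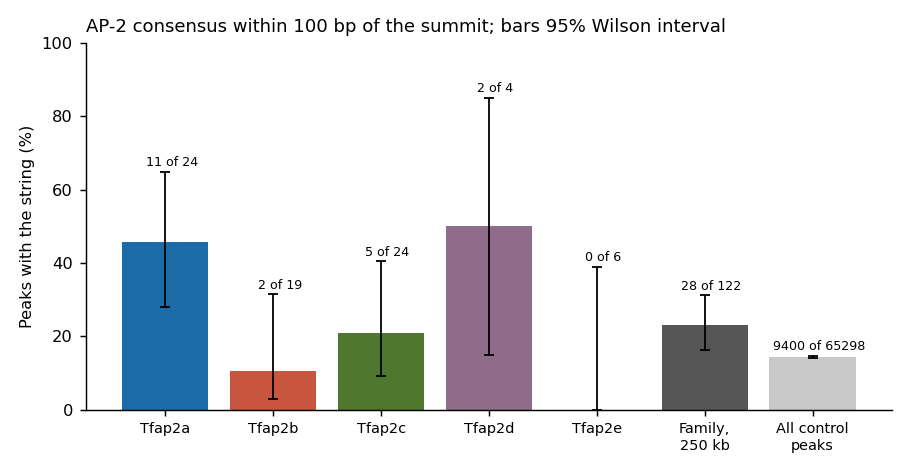
Percent of control peaks with GCCNNNGGC within 100 bp of the summit (y axis) for the own peaks of each AP-2 gene, for all 122 family peaks and for all control peaks on chromosomes, with 95% Wilson intervals as error bars and the counts above them. Tfap2a has 11 of 24, Tfap2b 2 of 19, Tfap2c 5 of 24, Tfap2d 2 of 4 and Tfap2e 0 of 6, and all control peaks have 14.4%. The intervals cover counting error only, neighbouring peaks are not independent, and the shares were not tested.

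The windows that carry these matches are shown at the strongest own peak of Tfap2a, in intron 1 at chr13:40731561-40731761, and of Tfap2d, in coding exon 2 at chr1:19104685-19104885. Both are 201 bases on the forward strand, centred on the summit, with matches in capitals.
Tfap2a intron 1: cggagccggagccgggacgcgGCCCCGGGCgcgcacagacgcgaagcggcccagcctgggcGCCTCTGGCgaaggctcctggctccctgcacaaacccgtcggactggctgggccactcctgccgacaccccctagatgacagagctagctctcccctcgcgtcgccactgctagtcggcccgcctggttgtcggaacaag
Tfap2d exon 2: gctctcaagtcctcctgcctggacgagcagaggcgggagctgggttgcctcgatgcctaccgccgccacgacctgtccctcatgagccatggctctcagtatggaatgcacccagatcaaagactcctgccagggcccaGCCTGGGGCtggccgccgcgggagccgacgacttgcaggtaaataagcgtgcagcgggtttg
Tfap2a has 2 matches in this window and 6 in the whole peak, and Tfap2d has 1. The GC content of the windows was 71.6% and 64.2%. With 1 more base in the spacer, the consensus was found in 10 of the 122 family peaks, 8.2%, against 12.8% of all control peaks. With GGG in place of GGC at its end it was found in 30, 24.6% against 23.3%. Among the 24 own peaks of Tfap2a, 4 held the longer spacer near the summit and 6 held the GGG end. For both of these spellings the 95% interval at Tfap2a included the share of all control peaks. The interval at Tfap2a lay above that share for GCCNNNGGC only, so the high share there depended on the spelling. In the RefSeq promoter windows of 300 bases, 16.6% of 32851 held the consensus. None of the 2 windows of Tfap2a, 3 of Tfap2d, 1 of Tfap2b and 1 of Tfap2e did. Tfap2c had 0 windows in this set, and so few windows cannot show whether the family differs from other genes.

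Proteins known to act with AP-2 factors were examined by the same measures. These were the repressors Kctd1 and Kctd15, the coactivators Cited1, Cited2, Cited4, Ep300 and Crebbp, and the AP-2 binding proteins Kdm5b, Wwox and Yeats4. All 10 start sites had a control peak, beside 65.5% of all protein-coding genes, with widths from 910 bp at Wwox to 4973 bp at Kctd1. A region within 250 kb was present at 5 of 10, with 3 at Kctd1, 2 at Kctd15, 3 at Cited4 and 1 each at Cited2 and Ep300, beside 41.4% of all genes. Of 8 transcription factors of the epithelial programme, all 8 had a start-site peak and 3 had a region, beside the same 65.5% and 41.4% of all genes. Trp63, the p63 gene of stratified epithelia, had 4, and Grhl1 and Grhl3 had 1 each. Grhl2, Ovol1, Ovol2, Klf4 and Klf5 had none within 250 kb.

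The limit of 250 kb set the count of regions most strongly at Tfap2b, where the last control peak inside lay 146.4 kb downstream and the next outside lay 250.3 kb downstream with a summit −log10 p of 9.27. The first regions outside stood 264.6 and 268.4 kb downstream, with summit −log10 p of 3.49 and 4.7. For Tfap2a the region just inside was at 151.3 kb and the one just outside at 326.8 kb. For Tfap2c the one outside was at 428.0 kb, for Tfap2d at 370.5 kb and for Tfap2e at 693.7 kb. Beyond 250 kb, 24 control peaks were nearest to Tfap2b, all downstream and out to 691 kb, and 9 of them overlapped a region. That is 37.5% (21.2 to 57.3%), against 8.92% of the 4856 control peaks at such a distance from any start site. This stretch was named after its values were seen, and neighbouring peaks are not independent. The interval covers counting error only, and the difference was not tested. These 9 regions had summit −log10 p from 3.43 to 6.78. Within 1000 kb Tfap2b had 11 regions, a number that 1.69% of genes reached, against 4 for Tfap2a, 3 for Tfap2c, 10 for Tfap2d and 2 for Tfap2e, where Tfap2d counts the same regions as its neighbour. Which gene these distant regions act on was not tested.

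**Figure D5:**
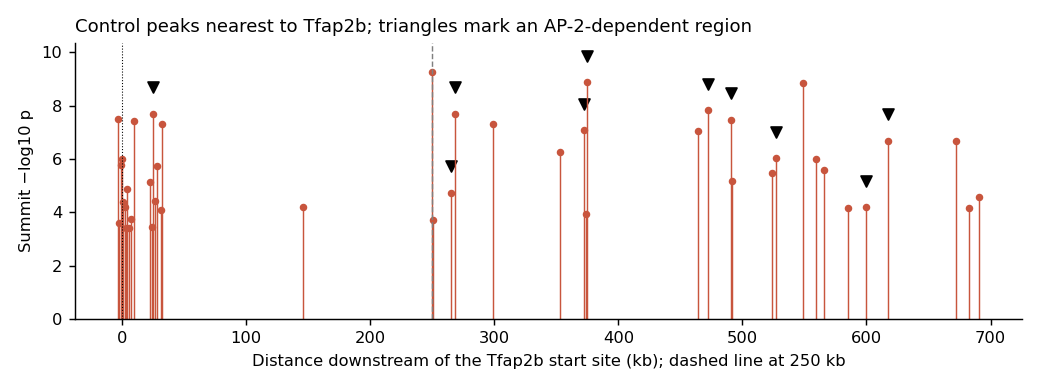
Control peaks whose nearest protein-coding start site is that of Tfap2b, by distance in kb (x axis, downstream positive) and summit −log10 p (y axis), with triangles at peaks that overlap an AP-2-dependent region and a dashed line at 250 kb. Inside the line 1 of 19 peaks has a region, and beyond it 9 of 24 do.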

How the data were processed

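Surface ectoderm was profiled by ATAC-seq in 2 control and 2 EDKO libraries at E11.5. The authors trimmed adapters with NGmerge, used bowtie2 (--very-sensitive -k 10) for alignment to mm10, and ran Genrich 0.5 in ATAC mode without PCR duplicates and chrM. Control libraries against a genome background gave the control peaks. The same libraries with EDKO libraries as background gave the AP-2-dependent regions. The deposited −log10 p at the summit was calculated by Genrich and is not adjusted for the number of positions. The deposited score columns are the area under the −log10 p curve and 1000 times area over width, capped at 1000. The deposited summit position is an offset from the start of the peak. Depth per peak is unknown, since the lists hold no read counts.

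Here, peaks were placed on GRCm38 with GENCODE mouse release 21 (Python 3.11.15, pandas 2.3.3, scipy 1.17.1), with 1 principal start site for each of 21829 genes. An overlap was counted from 1 bp, and strings were matched on both strands. Shares carry 95% Wilson intervals. There was no test across features, since no value per library exists. Genes named were the members, all regions within 250 kb, start-site peaks, the 3 strongest own peaks of each member, regions at the limit, and listed partner, epithelial and marker genes with their values. The largest peak of the windows, the Tfap2c group at 179 to 190 kb and the distant Tfap2b regions were named after their values were seen. Of the gene lists, 3 genes are not reported here, nor are 2 sequences. The members and lists were chosen with earlier results of these data known. Alternatives were other windows, an area of at least 500, overlap of at least 50% of both intervals, the 5′-most start site, nearest gene alone, the GREAT assignment rule and other strings. The programs were tested on simulated intervals and planted strings. EDKO peaks, regions gained in EDKO, H3K4me3 and RNA-seq were not analysed here.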

Additional observations from a re-analysis of the deposited data

How the results depend on the processing

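No paired analysis was possible because the libraries of each group were combined in 1 call, and for the same reason no library could be left out. Of 32 alternative values, 17 stayed within their limits and 15 moved. The consensus with GGG at its end was among those that stayed, at 24.6% against 23.0%, but all control peaks then had 23.3% against 14.4%. The number of control peaks, 122, was 71 within 100 kb, 214 within 500 kb and 349 within 1000 kb, 78 with an area of at least 500 and 77 by nearest gene. The number of regions, 5, was 13 within 500 kb, 20 within 1000 kb, 1 with an area of at least 500, and 14 or 3 under the GREAT rule with an extension of at most 1000 or 100 kb. The wider windows hold more peaks by construction. The share of peaks with a region, 4.1%, was 1.28% with an area of at least 500. It was 1.64% when 50% of both intervals had to overlap. The share of all control peaks under these stricter rules is not given here, and the cause was not tested. The consensus share, 23.0%, was 45.1% over whole peaks, which are longer, against 32.4% of all control peaks. With 1 more base in the spacer it was 8.2%, against 12.8% of all control peaks. The start-site peak of Tfap2a was 3519 bp wide at the 5′-most start site, below the 3526 bp of Tfap2c. Without the region in the floxed exons of Tfap2a, an alternative added after seeing the data, 4 regions and 3.28% of peaks remained. Of all 3103 regions, 36.4% had an area of at least 500.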

Other observations

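Strings of other ectodermal factors were counted in the same windows. The TEAD string GGAATG, bound by the effectors of the Hippo pathway, stood within 100 bp of the summit in 22 of the 122 family peaks, 18.0% (12.2 to 25.8%), and in 17.9% of all control peaks. The GRHL string AACCNGTT, bound by Grainyhead-like factors of epithelia, stood in 5, 4.1% (1.76 to 9.24%), against 3.09% of all control peaks. Over whole peaks TEAD strings were found in 15 of the 24 own peaks of Tfap2a, 62.5% (42.7 to 78.8%), against 39.3% of all control peaks, and the Tfap2a peaks were also wider, with a median of 881.5 bp against 560 bp. Near the summit the TEAD count at Tfap2a was 5 of 24, 20.8%. These shares were not tested.

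Genes outside the family were nearest to 45 of the 122 peaks. Gcnt2 was nearest to 6 of these, all in the Tfap2a window. Bmp7 and Fam210b were nearest to 6 each, all in the Tfap2c window. None of the 22 peaks in the Tfap2d window was nearest to a gene outside the family.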
